A study of Mus musculus with 3 samples.

Results

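Integrins and the proteins that tie them to the cytoskeleton were read from bead arrays of LLC/luc cells, Lewis lung carcinoma cells of the C57BL/6 mouse that carry luciferase. The list goes by gene family and not by a threshold on the values, but it was drawn up with earlier results of these arrays known. Of 36 genes listed, 34 had a named probe, among 19057 genes with a named probe on the array. They were 16 of 17 integrin alpha chains, all 8 beta chains, and 10 of 11 focal adhesion proteins and collagen receptor kinases. Itga10 and Ptk2, which encodes focal adhesion kinase (FAK), were paired with no probe in the annotation used and are not analysed here. The cell lines were LLC/luc parental cells, LLC/luc BM 1st cells of selection round 1, grown from tibial lesions after parental cells were injected into the heart of mice, and LLC/luc BM 2nd cells of selection round 2, grown from lesions that BM 1st cells formed. All 3 lines carried luciferase and were grown in DMEM with serum, with no further treatment. The number of lesions or clones behind each sub-line was not given in the sources used here, and host cells of the marrow may be carried in a culture taken from bone. Each line was measured on 1 array, so differences between lines cannot be set against a spread between replicates, none carries a p-value, and precision is limited by the 3 arrays.

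Integrins are surface receptors made of an alpha and a beta chain, and the pair decides which matrix protein or cell-surface protein is bound. Inside the cell the beta tail binds talin, which unfolds under force and recruits vinculin, while FAK, Src, paxillin and the scaffold encoded by Bcar1 carry the signal, and integrin-linked kinase with parvin links the complex to actin. In bone, integrins hold cells to collagen, fibronectin and osteopontin. The study stained integrin chains on osteotropic cells as receptors of lumican, a proteoglycan of the matrix, and followed FAK phosphorylation. Its main text and the figure captions listed there name the chains of Itgb1 and Itgb2 for this staining. Only the text of the supplement, as read here, names those of Itga1 and Itga2, and this difference was not resolved. All of these genes, their partners and the downstream proteins are looked at here.

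Intensities are linear and match between the arrays rank by rank, as after quantile normalisation. They run from 60.2 to 56032 with a median of 101, so background is still in them. A gene was read from its brightest probe. Background on each array was set by 1503 probes for odorant and pheromone (vomeronasal) receptors, genes mostly silent outside sensory neurons, as their 95th percentile, which came to 109 for the parental array, 110 for BM 1st and 107 for BM 2nd, so by construction about 1 probe in 20 of silent genes lies above it. Ratios are written BM 2nd/P and BM 1st/P, where P is the parental line, and BM 2nd/BM 1st. The log2 ratios of these receptor probes had an SD of 0.12 in each of the 3 comparisons and lay between -0.51 and 0.48. Where a gene had several probes above background, the median SD between their log2 BM 2nd/P ratios was 0.14. Probes differ in how they respond, so intensities of different genes are not ranked as RNA levels. Of the cell type markers, Krt8 and Krt18 were bright in all 3 lines while Epcam and Krt19 stayed below background, and Cdh1 lay between 116 and 125. The 2 bright keratins differed in direction, with a log2 BM 2nd/BM 1st ratio of 1.33 for Krt8 and -0.84 for Krt18.

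Of the 34 genes, 22 lay above background in the parental line, 25 in the BM 1st line and 23 in the BM 2nd line, against 50.7%, 50.1% and 52.6% of all genes. On all 3 arrays 20 genes were above background, 8 were above it on none, and 6 on 1 or 2 arrays. The 20 were 7 alpha chains, 4 beta chains and 9 focal adhesion proteins. The 8 that were on no array above background were the alpha chain genes Itga2, Itga4, Itga9, Itga11, Itgal, Itgam and Itgax and the beta chain gene Itgb6, with intensities between 83.3 and 108. In a culture of mixed cells, fewer cells of a type and less RNA per cell cannot be told apart.

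**Figure D1:**
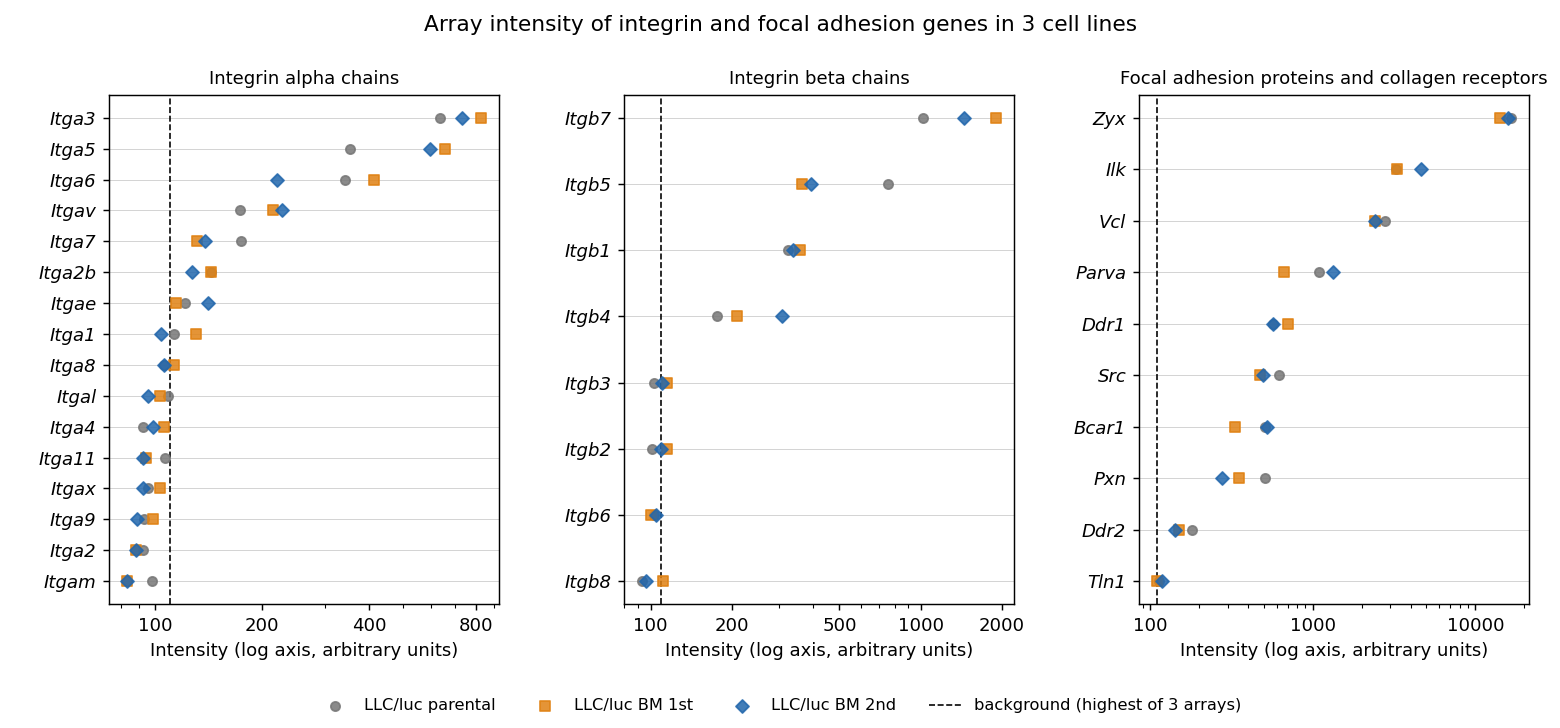
Intensity (horizontal log axes, arbitrary units) of the brightest probe of 34 genes for LLC/luc parental (grey circles), BM 1st (orange squares) and BM 2nd cells (blue diamonds), 1 array each, with the background of the brightest array as a dashed line. The points of 1 gene lie close together for most genes, Itgb5 is brightest in parental cells at 755, and 8 genes lie at or left of the line in all 3 lines.

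Few of these genes differed between the lines. The threshold of the study, an absolute log2 ratio above 1, was set for BM 2nd against parental cells. It was used here for all 3 comparisons, with the added condition that either array of the pair lay above background. By this rule 0 of 24 genes were higher and 0 of 24 lower in BM 2nd cells relative to parental cells. Of all genes compared, 1.83% were higher and 1.53% lower. In BM 1st cells 0 of 26 were higher and 1 of 26 was lower than in parental cells, against 2.04% and 1.79% of all genes. Between BM 2nd and BM 1st cells 0 of 26 passed in either direction, against 3.01% higher and 1.78% lower. With so few genes, shares of this size give less than 1 gene in each direction, so the counts do not set these genes apart. The median size of the log2 BM 2nd/P ratio was 0.25 over the 24 genes and 0.20 over the 10578 genes compared. It was 0.26 against 0.21 for BM 1st/P, and 0.17 against 0.22 for BM 2nd/BM 1st.

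**Figure D2:**
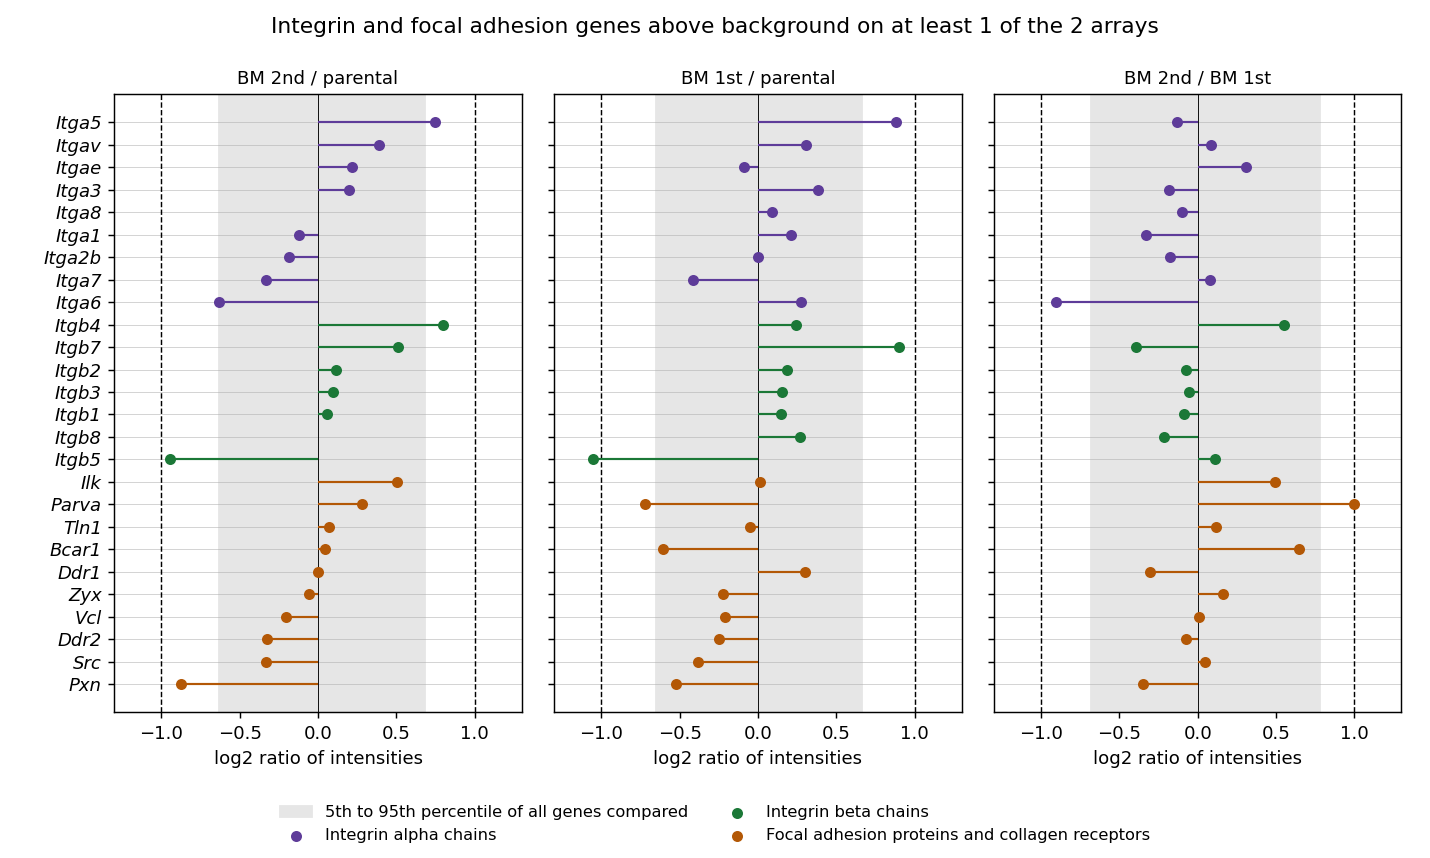
Log2 ratio of intensities (horizontal axes) for each gene with either array of the pair above background, for BM 2nd over parental, BM 1st over parental and BM 2nd over BM 1st cells. Grey bands hold the 5th to 95th percentile of all genes compared, and dashed lines mark 1 and -1; Itgb5 in BM 1st over parental cells, at -1.05, is the point outside them.

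Itgb5 was the gene past the threshold. It encodes the integrin β5 chain, which pairs with αv to bind vitronectin and other proteins with an RGD motif. Its intensity was 755 (parental), 364 (BM 1st) and 392 (BM 2nd). It fell 2.08-fold in BM 1st relative to parental cells, a log2 ratio of -1.05, and only 1.64% of all genes compared had a ratio as low. The log2 BM 2nd/P ratio was -0.94, short of the threshold, with 1.79% of genes as low, and the ratio of BM 2nd to BM 1st cells was 0.11. The ratios of both sub-lines to parental cells share the parental array, so they are not independent, and Itgb5 has 1 probe, so no other probe checks it.

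Of the alpha chains, Itga5 had the highest ratios to parental cells. It encodes the α5 chain, the partner of β1 in the main fibronectin receptor. Intensities were 355 (parental), 654 (BM 1st) and 596 (BM 2nd), with log2 ratios of 0.75 for BM 2nd/P and 0.88 for BM 1st/P. Of all genes compared, 4.03% and 2.76% had ratios as high. Its other probe read 163, 249 and 200, with ratios of 0.29 and 0.61, so both probes were brighter in the 2 sub-lines, by less on the dimmer probe.

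The bases before the start of Itgb5 and Itga5 were picked by the values above and are shown because these chains had the lowest ratio among beta chains and the highest among alpha chains in both sub-lines. They are 250 bases upstream of the RefSeq start in build GRCm38.p6, at chr16:33829415-33829664 on the plus strand for Itgb5 and chr15:103366792-103367041 on the minus strand for Itga5, written 5′ to 3′ along each gene. Capitals mark GC boxes, GGGCGG or its reverse complement CCGCCC, the motif that Sp1 binds.
Itgb5: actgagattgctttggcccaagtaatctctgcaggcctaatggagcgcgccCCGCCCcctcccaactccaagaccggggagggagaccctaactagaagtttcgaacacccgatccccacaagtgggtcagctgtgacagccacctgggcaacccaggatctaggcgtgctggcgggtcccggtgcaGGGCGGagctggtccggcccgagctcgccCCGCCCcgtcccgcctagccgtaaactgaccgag
Itga5: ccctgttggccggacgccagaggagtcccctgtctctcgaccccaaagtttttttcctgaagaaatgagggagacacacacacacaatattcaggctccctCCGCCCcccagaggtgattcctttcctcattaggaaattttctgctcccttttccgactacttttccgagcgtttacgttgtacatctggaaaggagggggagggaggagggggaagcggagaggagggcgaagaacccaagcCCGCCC
Itgb5 holds 3 GC boxes and Itga5 holds 2. Of the listed genes 26 had a promoter in the table, and 11 of them (42.3%) held a GC box in this window, against 32.9% of 27025 genes. The TATA box TATAAA was found on either strand in 13.0% of all promoters and 1 of the 26. The CCAAT box, searched as these 5 letters, was found in 34.5% and 3 of the 26. The AP-1 motif TGANTCA was found in 6.87% and 2 of the 26. Neither promoter shown holds any of these. Matches are letters in a window and were not tested as binding sites.

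The other alpha chains above background stayed within 1 on the log2 scale. Itgav, the αv chain that pairs with 5 beta chains, read 173, 214 and 227 across the parental, BM 1st and BM 2nd lines. Its log2 ratios were 0.39 for BM 2nd/P and 0.31 for BM 1st/P, and 2 further probes above background gave BM 2nd/P ratios of 0.48 and 0.13. Itga3, a laminin-binding chain, read 636, 830 and 729, with log2 ratios of 0.20 for BM 2nd/P and 0.38 for BM 1st/P. Itgav and Itga3 were thus a little brighter in both sub-lines, but by a difference that 13.4% and 26.3% of all genes reached or passed in BM 2nd cells.
Itga6, which forms laminin receptors with β1 and with β4, had its lowest intensity in BM 2nd cells. It read 342 (parental), 414 (BM 1st) and 221 (BM 2nd), with log2 ratios of -0.63 for BM 2nd/P, 0.27 for BM 1st/P and -0.91 for BM 2nd/BM 1st. The last was as low in 2.34% of genes. The next probe of Itga6 lay at background, between 111 and 113, and gives no check.
Itga7, a laminin-binding chain best known from muscle, read 174, 131 and 138, with log2 ratios of -0.33 for BM 2nd/P and -0.41 for BM 1st/P, and its other probe was below background. Itga2b, the platelet αIIb chain, read 144, 144 and 127, and Itgae, the αE chain of intraepithelial lymphocytes that binds E-cadherin, read 121, 114 and 141. Itga7 was thus dimmer in both sub-lines, short of the threshold, while Itga2b and Itgae lie so near background that their ratios say little about RNA.

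For lumican the collagen-binding pairs are of interest. Itga2, the α2 chain that with β1 binds collagen I and has been named as a lumican receptor, was read by 1 probe at 92.3, 88.2 and 88.2, below background in every line. Itga1 read 113, 131 and 104, above background in parental and BM 1st cells and not in BM 2nd cells, and its other probe stayed at or under 93.1. Itga11, a collagen-binding chain of fibroblasts, had none of its 3 probes above background. Itga9, a receptor chain for tenascin-C, read 93.2, 98.6 and 88.8, below background throughout. Itga8, a nephronectin receptor chain, passed background in BM 1st cells alone, at 113. The collagen receptors outside the integrins were above background in each line. Ddr1, a receptor tyrosine kinase of collagen that is typical of epithelial cells, read 573, 704 and 571, with log2 ratios of -0.00 for BM 2nd/P and 0.30 for BM 1st/P. Ddr2, its mesenchymal relative, read 180, 151 and 143, with a log2 ratio of -0.33 for BM 2nd/P. Neither was past the threshold.

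Itgb1, the β1 chain shared by most matrix-binding integrins, hardly differed between lines. It read 323 (parental), 358 (BM 1st) and 336 (BM 2nd), with log2 ratios of 0.06 for BM 2nd/P and 0.15 for BM 1st/P. Its other probe read 185, 190 and 168. These differences are about as large as the SD between probes of a gene.
Itgb2, the β2 chain of leukocyte integrins, read 101, 115 and 109 on 1 probe, above background in BM 2nd and BM 1st cells and not in parental cells. It lay below the 99th percentile of receptor probes, 119 in BM 2nd cells and 128 in BM 1st cells. Its partner genes Itgal, the lymphocyte chain that binds ICAM proteins, and Itgam and Itgax, the chains of complement receptors on myeloid cells, were above background on no array, with at most 108. Itgad, a further partner outside the list, was below background as well, at 108, 102 and 100. The array therefore gives no clear level for any β2 integrin, and near background it would show little of a change in RNA.
Several leukocyte markers were brightest after the first selection round. Of 13 leukocyte markers 3 lay above background in the parental line, 9 in the BM 1st line and 6 in the BM 2nd line. This compares with 50.7%, 50.1% and 52.6% of all genes. Some of the 9 were barely above background, such as Cd53 at 110. The summed intensity was 1478, 3227 and 2016, and Lyz2 was the largest part of it in BM 1st cells. Lyz2, a lysozyme of macrophages and neutrophils, read 79.5, 1078 and 365. Laptm5, a lysosomal protein of blood cells, read 90.1, 367 and 184, and Fcer1g, an Fc receptor chain, 95.4, 255 and 128, so that both were highest in BM 1st cells. Ptprc, which marks all leukocytes, read 102, 111 and 104, and Tyrobp stayed below background. Coro1a went the other way, at 113, 133 and 173. It was the 1 of 9 leukocyte markers compared with a BM 2nd/BM 1st ratio above 0. The part of such cells in the Itgb2 values was not tested.

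Itgb4 and Itgb7 were the other beta chains clearly above background. Itgb4, whose β4 chain pairs with α6 in hemidesmosomes, read 176, 209 and 307, with log2 ratios of 0.80 for BM 2nd/P, as high in 3.44% of genes, and 0.25 for BM 1st/P. The other Itgb4 probe read 116, 118 and 142, a BM 2nd/P ratio of 0.30. Both probes were brightest in BM 2nd cells, in which its α6 partner gene was dimmest.
Itgb7, the β7 chain known from gut-homing lymphocytes, was bright on its 1 probe, at 1018 (parental), 1904 (BM 1st) and 1452 (BM 2nd). Its log2 ratios were 0.51 for BM 2nd/P and 0.90 for BM 1st/P, and 2.61% of genes had a BM 1st/P ratio as high. Neither partner of β7 was clearly measured. Itga4 encodes the chain that binds VCAM1 and fibronectin, and none of its 6 probes was above background on any array. Itgae was near background.
The remaining partners of αv were dim. Itgb3, the β3 chain of osteoclasts and platelets, read 103, 115 and 110, just above background in BM 2nd and BM 1st cells. Itgb6, an epithelial chain that activates TGF-beta, was above background on none of 4 probes, and Itgb8 passed it in BM 1st cells alone, at 112. Of 6 platelet markers, 1 was above background in the parental line and 2 in each sub-line, against 50.7%, 50.1% and 52.6% of all genes. Their summed intensity was 642, 865 and 641. Pf4, a chemokine of platelets and some macrophages, read 106, 347 and 118, while Ppbp, another platelet chemokine, read 127, 131 and 132. Gp9 and Gp6 stayed below background, and how far such cells enter the Itgb3 and Itga2b values was not tested.

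**Figure D3:**
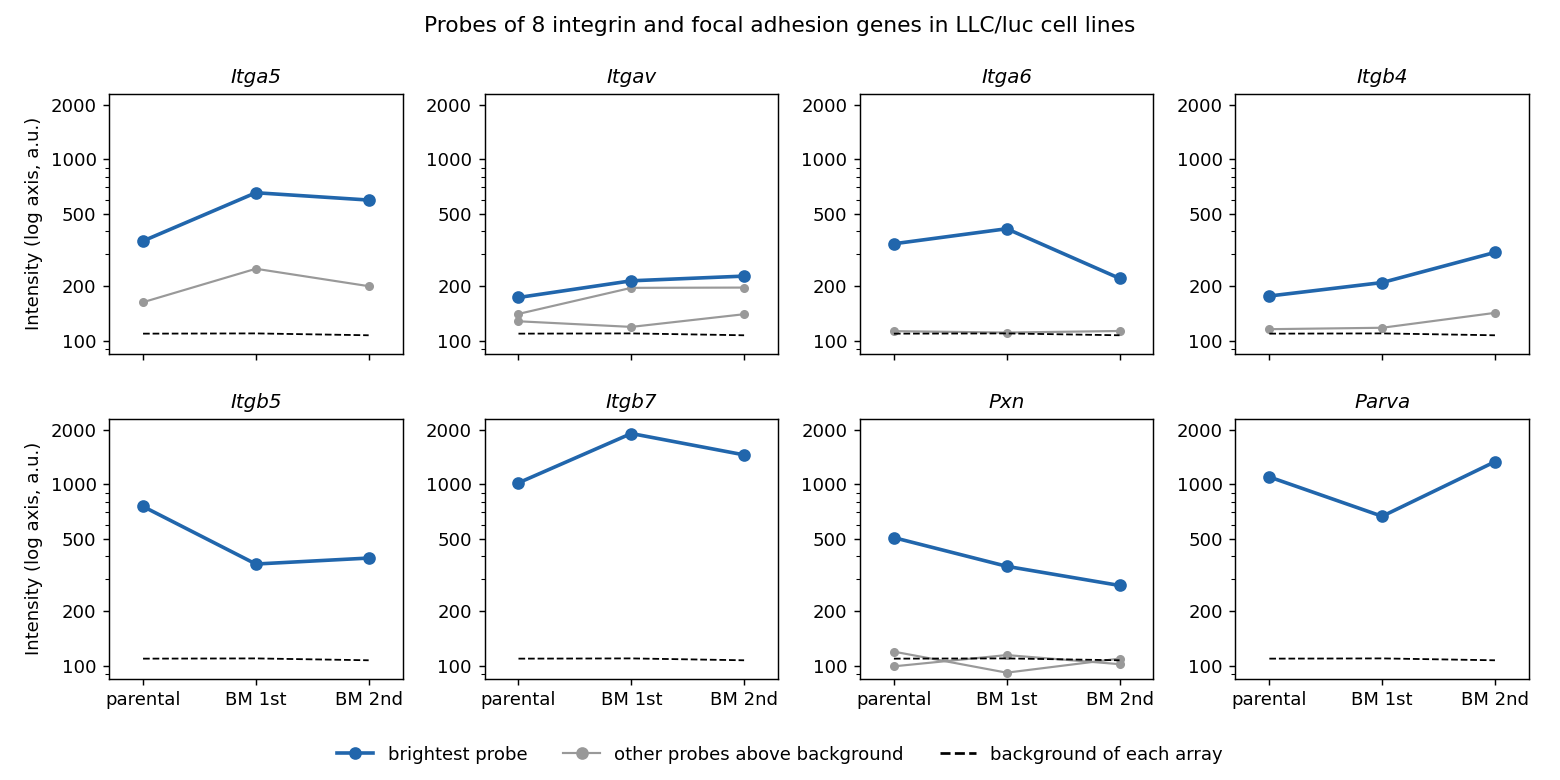
Intensity (vertical log axes, arbitrary units) of every probe above background on at least 1 array for 8 genes across the parental, BM 1st and BM 2nd LLC/luc lines, with the brightest probe in blue, other probes in grey and the background of each array as a dashed line. Both Itga5 probes peak in BM 1st cells, both Itgb4 probes are highest in BM 2nd cells, and Itgb5, Itgb7 and Parva have 1 probe each.

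Set out as pairs, the alpha and beta chains can form 24 known integrins in mammals, of which 23 have probes for both chains. With both chain genes above background, 9 pairs were counted in the parental line, 13 in the BM 1st line and 10 in the BM 2nd line. In all 3 lines these included the laminin receptors α3β1, α6β1, α7β1 and α6β4, the fibronectin receptor α5β1, the RGD-binding pairs αvβ1 and αvβ5, and αEβ7, which rests on the dim Itgae probe. α1β1 was counted in parental and BM 1st cells, αvβ3 and αIIbβ3 in BM 1st and BM 2nd cells, and α8β1 and αvβ8 in BM 1st cells. None of the pairs of β2 was counted in any line, nor was α2β1, α4β1, α4β7, α9β1, α11β1 or αvβ6, and α10β1 is not analysed here.
Most differences between lines in this count came from chains within a few units of background. With background at the 99th percentile of receptor probes, 8 pairs were counted in each line. The 7 pairs α3β1, α5β1, α6β1, α7β1, α6β4, αvβ1 and αvβ5 were among them in all 3, and α1β1 was then counted in BM 1st cells alone. The counts describe RNA above background and not chains on the cell surface.

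**Figure D4:**
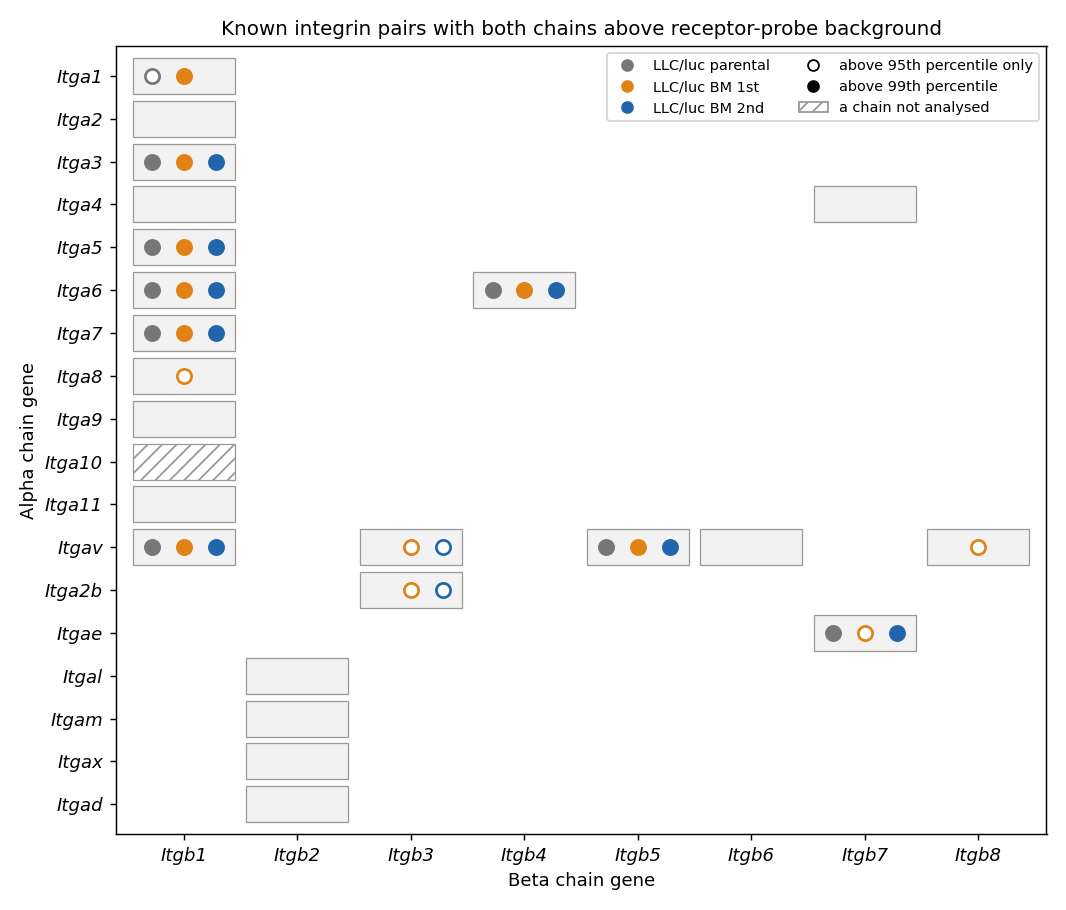
Grid of alpha chain genes (vertical axis) and beta chain genes (horizontal axis), with a box for each of the 24 known pairs and a circle where both chain genes lay above background in LLC/luc parental, BM 1st or BM 2nd cells. Filled circles mark pairs that also pass the 99th percentile of receptor probes, 8 in each line, and open circles pairs that pass the 95th percentile alone.

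Below the membrane, the adaptors and kinases of focal adhesions were mostly bright, and none passed the threshold in any of the 3 comparisons. Zyx, a LIM protein that gathers at strained actin fibres, read 16569, 14202 and 15909 across the parental, BM 1st and BM 2nd lines, with a log2 ratio of -0.06 for BM 2nd/P. Vcl, vinculin, read 2786, 2410 and 2422, a ratio of -0.20. Both differences are small. Ilk, integrin-linked kinase, read 3268, 3300 and 4639, with log2 ratios of 0.51 for BM 2nd/P and 0.01 for BM 1st/P, but its other probe, at 132, 112 and 123, gave -0.10 for BM 2nd/P.
Pxn, paxillin, a scaffold that FAK and Src phosphorylate, read 508, 353 and 277, lower at each round. Its log2 ratios were -0.88 for BM 2nd/P, as low in 2.17% of genes, and -0.52 for BM 1st/P. The 4 other Pxn probes lay near or below background, so they give no check. Src, a kinase partner of FAK, read 620, 477 and 493, with a log2 ratio of -0.33 for BM 2nd/P.
Of the 10 genes of this group, 8 had a ratio below 0 for BM 1st/P, against 5281 of all 10375 genes compared. For BM 2nd/BM 1st 7 had a ratio above 0, against 5139 of 10558. Both ratios share the BM 1st array, so they are not independent, and some are near 0, such as that of Vcl for BM 2nd/BM 1st, at 0.01. Parva and Bcar1 had the largest such differences. Parva, alpha-parvin, which binds integrin-linked kinase and actin, read 1097, 666 and 1331. Its log2 ratios were 0.28 for BM 2nd/P, -0.72 for BM 1st/P and 0.999 for BM 2nd/BM 1st, just short of the threshold and as high in 3.03% of genes. Bcar1, a Src substrate that responds to stretch, read 506, 333 and 521, with ratios of 0.04, -0.60 and 0.64. Each has 1 probe. Tln1, talin, which activates integrins, read only 114, 110 and 119 on its 1 probe, at background, so the array gives no usable level for it.

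Because background stays in the intensities, ratios understate changes of dim genes. With the median of the receptor probes subtracted on each array, 1 gene was higher and 2 were lower in BM 2nd cells relative to parental cells, Itgb4 at a log2 ratio of 1.36, Itgb5 at -1.14 and Pxn at -1.17, while 5.86% of all genes were then higher and 4.83% lower. In BM 1st relative to parental cells 1 was higher, Itga5 at 1.10, and 2 were lower, Itgb5 at -1.29 and Itga7 at -1.08, against 5.8% and 5.48% of all genes. Between BM 2nd and BM 1st cells 2 were higher, Itgae and Parva, and 2 lower, Itga1 and Itga6, against 7.66% and 5.89%. Subtraction leaves small values for genes near background, such as Itgae, Itga1 and Itga7, so it widens noise there as well. Values below background, such as that of Itga1 in BM 2nd cells, were set to the background level.
At a lower threshold of 0.58 on the log2 scale, 2 genes were higher in BM 2nd than in parental cells, Itga5 and Itgb4, and 3 were lower, Itga6, Itgb5 and Pxn, against 6.94% and 6.24% of all genes. In BM 1st cells Itga5 and Itgb7 were higher than in parental cells and Itgb5, Parva and Bcar1 lower, against 6.61% and 6.44%. Parva and Bcar1 were higher in the BM 2nd than the BM 1st line and Itga6 was lower, against 8.64% and 7.26%. With 24 to 26 genes compared, these shares of all genes correspond to about 2 genes in each direction, so the counts are close to those of genes at large.

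Few genes that act with integrins but were not among the 36 passed the threshold, and few genes at large did. In lists of this size the counts do not set these genes apart. Of 48 further adhesome genes with a probe, 38 were compared between BM 2nd and parental cells, with a median log2 ratio of 0.05 against 0.01 over all genes. Of these, 1 was higher and 0 were lower, where 1.83% and 1.53% of all genes were. It was Tns3, a tensin that binds beta tails, at 423, 772 and 983 with a log2 ratio of 1.22 for BM 2nd/P, but its other 2 probes above background gave -0.04 each. In BM 1st over parental cells 0 of 36 passed, where 2.04% of all genes were higher and 1.79% lower. Between BM 2nd and BM 1st cells 1 of 37 was higher, Elmo1, which activates Rac with Dock1, where 3.01% of all genes were higher. Elmo1 read 238, 136 and 346, with a log2 BM 2nd/BM 1st ratio of 1.35, but 0.19 on its other probe. Fermt2, kindlin-2, the partner of talin at the beta tail, read 1198, 1561 and 1539, a BM 2nd/P ratio of 0.36.
Of 14 proteins that sit beside integrins in the membrane, 0 of 11 compared passed between BM 2nd and parental cells, with a median log2 ratio of 0.01. Of all genes, 1.83% were higher and 1.53% lower. Genes of this list lay on both sides of 0, and 5 of the 11 (45.5%) were within 0.3 of it, against 64.5% of all genes. In BM 1st cells 1 of 12 was higher than in parental cells, against 2.04% of all genes, with a median of 0.03 over the list. It was Cd9, a tetraspanin that binds integrins. Cd9 read 2496, 7568 and 3681, a log2 ratio of 1.60 for BM 1st/P and -1.04 for BM 2nd/BM 1st. In the latter comparison it was the 1 of 12 that was lower, against 1.78% of all genes. Cd82, another tetraspanin, read 288, 533 and 516, with log2 ratios of 0.84 for BM 2nd/P and 0.89 for BM 1st/P, the highest BM 2nd/P ratio of the list. Slc3a2, which binds beta tails, had the lowest, at -0.43.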

How the data were processed

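Total RNA of the 3 LLC/luc lines was put on Illumina mouse bead arrays that cover the genome, with a single array for each. The deposited values are linear intensities of 45281 probes. GenomeStudio 2011.1 is named in the submitters' processing notes, while its normalisation and background settings were not given in the sources used here. Once sorted, the arrays agree to within 0.274 units, which is the mark of quantile normalisation. The platform annotation pairs 34885 probes with 1 gene, 18 with several and 10378 with none, and symbols were updated through the RefSeq table of assembly GRCm38.p6. The brightest probe of a gene by mean log2 intensity stood for it, and its other probes served as a check. Python 3.11.15 with pandas 2.3.3 and numpy 2.4.6 gave the log2 ratios, and matplotlib 3.10.9 drew the figures.

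The members, pairs and lists were chosen with earlier results of these data known. Members past the threshold, Itgb1, Itgb2, Itga2, Itgav with its beta partners and the 5 brightest were to be described in full, with every other member accounted for. From the further lists, genes past the threshold were to be named. Fermt2, Cd82, Slc3a2, Fn1, Vtn and Vcam1 were chosen after their values were seen. Counting was checked on simulated data, with changes well past the threshold planted in genes far above background. Dim genes and ratios near the threshold were not covered by this check. Alternatives varied the background level and filter, the probe choice, centring, background subtraction and the threshold. With 1 array per line no test across replicates was possible.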

Additional observations from a re-analysis of the deposited data

Results flagged for a closer look

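Parva and Itga6 were picked out because BM 1st and BM 2nd cells lay on opposite sides of parental cells by more than the SD between probes of a gene. For Parva the log2 ratio was 0.28 in BM 2nd cells and -0.72 in BM 1st cells, so that the 2 sub-lines differed by 0.999. For Itga6 it was -0.63 in BM 2nd cells and 0.27 in BM 1st cells, a difference of -0.91. As the mean over its 2 probes above background that difference was -0.44. With 1 array per line these differences were not tested, and no second probe of either gene lay clearly above background.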

How the results depend on the processing

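The log2 BM 1st/P ratio of Itgb5 was -1.07 after centring and -1.29 with background subtracted. Relative to parental cells, 1 gene was higher and 2 were lower in BM 2nd cells with background subtracted, and 2 and 3 at a threshold of 0.58, in place of 0 and 0. In BM 1st relative to parental cells 1 was higher and 2 were lower with background subtracted, and 2 and 3 at 0.58. Between BM 2nd and BM 1st cells the counts were 2 higher and 2 lower with background subtracted, and 2 and 1 at 0.58. Centring on probes above background moved all BM 2nd/P ratios by 0.14 and all BM 2nd/BM 1st ratios by 0.16, and 1 gene, Parva at 1.16, then passed the threshold, higher in the BM 2nd than the BM 1st line. It turned the sign of 3 of 24 BM 2nd/P and 6 of 26 BM 2nd/BM 1st ratios, none of a gene past the threshold. It moved BM 1st/P ratios by -0.02. Averaged over probes above background on at least 1 array, the BM 2nd/P ratios of Itga5, Itgb4, Ilk, Itga6 and Pxn shrank. They came to 0.52, 0.55, 0.20, -0.32 and -0.32, and the BM 2nd/BM 1st ratio of Itga6 to -0.44, since dim probes enter the mean. With background at the 99th percentile, 8 pairs were counted in BM 1st cells in place of 13. No paired analysis was possible because there is 1 array per line. The other background levels and filters left the counts past the threshold as they were. Signal over background limits the 8 genes above it on no array and the 6 above it on 1 or 2.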

Other observations

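Among the matrix and cell-surface ligands of these integrins, several genes passed the threshold. Of 32 ligand genes with a probe, 24 were compared between BM 2nd and parental cells, and 4 were higher and 0 lower, with a median log2 ratio of 0.07, where 1.83% of all genes were higher and 1.53% lower. They were Lum, Tnc, Col1a1 and Ccn1, and the study had listed Lum and Tnc from these arrays. The ligand list was drawn up with such results known, so its counts cannot be weighed against the shares of all genes. In BM 1st over parental cells 1 of 24 was higher, Lum, against 2.04% of all genes. Between BM 2nd and BM 1st cells 5 of 23 were higher, the same 4 and Col3a1, and 1 was lower, Lamc1, against 3.01% and 1.78%. Lum read 198, 1742 and 6133 across the parental, BM 1st and BM 2nd lines, with a log2 ratio of 4.95 for BM 2nd/P. Tnc, tenascin-C, read 120, 97.8 and 269, with a ratio of 1.16, and its other probes gave 0.04 and 0.80. Ccn1, a matrix protein that binds αvβ3 and αvβ5, read 545, 352 and 1768. Its log2 ratio was 1.70 for BM 2nd/P, and its other 2 probes gave 0.76 and 1.23. Col1a1, a chain of collagen I, read 96.0, 120 and 412, at least 3.76-fold higher in BM 2nd than in parental cells, in which it was at background. The summed intensity of 9 fibroblast and stroma markers, Col1a1 among them, was 2531, 2591 and 4540, and the part of such cells was not tested. These markers differed among themselves. Pdgfra, a growth factor receptor of mesenchymal cells, read 258, 851 and 1068, with log2 ratios of 2.05 for BM 2nd/P and 1.72 for BM 1st/P, but 0.19 for BM 2nd/P on its other probe. Fbln1, a matrix protein, read 544, 271 and 601, with ratios of -1.01 for BM 1st/P and 1.15 for BM 2nd/BM 1st. Col3a1, a chain of collagen III, read 1107, 833 and 1946, with a ratio of 1.22 for BM 2nd/BM 1st. Col1a2, Pdgfrb, Thy1 and Postn stayed near or below background. Fn1, fibronectin, the ligand of α5β1, read 5860, 9131 and 5854, with log2 ratios of -0.00 for BM 2nd/P and 0.64 for BM 1st/P. Vtn, the vitronectin bound by αvβ5, stayed below background in all 3 lines. Lamc1, a laminin chain, read 2168, 3472 and 1608, with a log2 ratio of -1.11 for BM 2nd/BM 1st and -1.24 on its other probe. Vcam1, the ligand of α4β1, read 4277, 2836 and 4299, while no Itga4 probe was above background.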
